A study of Mus musculus with 59 samples.

Results

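The MHC class II antigen presentation genes were followed through RNA-seq of sorted mouse bone marrow stem and progenitor cells with and without the histone chaperone gene Daxx. The set held 10 named genes: H2-Aa, H2-Ab1 and H2-Eb1 (peptide-binding chains), Cd74 (the invariant chain), Ciita (the transactivator), H2-DMa, H2-DMb1 and H2-DMb2 (the H2-M peptide loader), and H2-Oa and H2-Ob (the H2-O inhibitor of H2-M). They were taken by name from this list. All 10 were found once each in all 10 gene-level tables, which listed between 51810 and 51812 genes. H2-Oa is listed at 0 in all 59 libraries. The class I genes H2-T23 and Psmb10, which most cells use, are listed at 0 in all 59 as well, so a 0 throughout can be a gene that the counting did not report, and no limit on the level of H2-Oa is drawn. The other 9 members were detected in every table, and 9 passed the filter for testing (a mean normalized count of at least 10) in each table except that of untimed GMPs, where 8 did.

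MHC class II molecules are heterodimers of an α- and a β-chain that present peptides from endosomes to CD4+ T cells. The invariant chain occupies the groove of new dimers, H2-M exchanges its remnant for antigenic peptide, and H2-O restrains H2-M. The class II genes are switched on together by Ciita, a coactivator recruited by factors bound to the conserved W, X and Y boxes of their promoters. B cells and dendritic cells express them constitutively and macrophages after exposure to interferon-γ, and class II has also been described on stem and progenitor cells. C57BL/6 mice lack a functional H2-Ea gene, so the H2-Eb1 transcript has no partner chain in these animals.

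All mice were C57BL/6 and carried 1 copy of a Cre transgene, the controls (Daxx +/+, WT) included. In the Mx1Cre line, Cre is driven by an interferon-responsive promoter and was induced with pI:pC, itself an inducer of interferon, so all groups of that line had met an interferon stimulus before collection at 3 or 24 weeks post induction (w.p.i.). Daxx F/F animals are called Daxx-KO, Daxx F/F Pu.1 F/F animals double KO (DKO), and Pu.1 F/F animals Pu.1-KO. KLS cells (lineage-negative, c-Kit+, Sca-1+, the compartment of stem and multipotent cells) and granulocyte-monocyte progenitors (GMPs) were profiled at 3 w.p.i. in 3 WT, 3 Daxx-KO and 2 DKO animals, and in a separate Pu.1 line in 2 WT and 2 Pu.1-KO animals. At 24 w.p.i. the tables held 2 WT and 4 Daxx-deleted animals, of which the labels describe 2 as Daxx-KO and 2 as DKO. The columns of those tables do not say which is which, and control and treated endings in the companion repeat-element tables set WT apart from the rest. A further pair of KLS and GMP sets, with 2 WT and 2 Daxx-KO libraries each, carried neither a mouse line nor a time in their labels and is called untimed. For Daxx-KO and WT KLS cells and GMPs, the study describes RNA-seq in 3 settings. These are 3 w.p.i., 24 w.p.i., and donor-derived cells from mice given transplanted marrow after irradiation, the last with 2 replicates. The timed tables cover 3 and 24 w.p.i., and the labels do not say whether the untimed libraries are of the transplanted kind. Long-term stem cells (7 libraries, RosaCreER line, tamoxifen, 3 days post induction) and MPP3 and MPP4 cells (4 libraries each, 3 w.p.i.) could not be matched to a genotype. For long-term stem cells the labels list 2 Daxx +/+, 2 heterozygous Daxx +/F and 3 Daxx F/F libraries. For MPP3 and for MPP4 cells they list 2 Daxx +/+ and 2 Daxx F/F libraries each. Induced Cre deletes in every cell that expresses it, blood cells of all lineages included, so in animals induced directly an effect within the sorted cell and one of its surroundings cannot be told apart.

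The libraries held 3045852 to 30136629 reads in genes. Daxx counts separated Daxx +/+ from Daxx-deleted libraries in all 6 tables with known status, for example 422.6 to 505.2 in WT against 72.2 to 102.3 in Daxx-KO at 3 w.p.i. for KLS cells. Spi1, which encodes Pu.1, did not check the Pu.1 labels: its counts were 2993 and 3330.4 in KLS libraries labelled DKO against 1669 to 2320 in WT, and 2920.5 and 1307 in KLS libraries labelled Pu.1-KO against 2764 and 2080.1 in their controls. A count over the whole gene cannot show loss of part of it. The Sca-1 gene Ly6a was high in KLS and low in GMP libraries (WT at 3 w.p.i. 245.4 to 433.2 against 7.9 to 28.3), and the CD16 gene Fcgr3 the reverse (128.9 to 623.3 against 1285 to 2802). In untimed GMPs Fcgr3 was 654.4 and 712.0 in WT but 87.2 and 19.6 in Daxx-KO, although CD16/32 defines the gate. Cd34, whose product is also in that gate, was 435.8 and 555.7 against 75.0 and 24.9. In untimed KLS cells the myeloid gene Mpo was 535.0 and 329.0 in WT and 6632 and 8348 in Daxx-KO. Ly6a rose too (135.9 and 113.7 against 473.7 and 485.2). Kit fell (6477 and 7033 against 3400 and 3192.5), as did Cd34 (1357 and 1521 against 468.2 and 541.5) and Flt3 (2181 and 3591 against 924.4 and 813.7). The part of these differences in the class II result was not tested. Per the study's methods, the lineage panel of the RNA-seq sorts removed cells bearing CD3e, CD4, CD8, CD11b, Gr-1, B220 or TER-119, and did not include CD11c. In bulk RNA, fewer cells of a type and less RNA per cell cannot be told apart.

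Of the 10 members, 8 lie on chromosome 17 (GRCm38) downstream of Daxx itself, which ends at position 33915590. H2-Oa is the nearest, 177 kb away (chr17:34092340-34095234), and H2-Eb1 the farthest, 390 kb away (chr17:34305867-34316674). Between them lie H2-DMa (chr17:34119541-34139101), H2-DMb2 (chr17:34143307-34151555), H2-DMb1 (chr17:34153072-34160230), H2-Ob (chr17:34238903-34254414), H2-Ab1 (chr17:34257689-34269419) and H2-Aa (chr17:34282744-34287823, minus strand). Ciita is on chromosome 16 (chr16:10480059-10528418) and Cd74 on another chromosome, so both are unlinked to the deleted locus. H2-DMb1 and H2-DMb2 are close copies whose reads may be split by the counting, and 10.4% of the exonic bases of H2-DMa overlap Brd2 on the other strand, 22.8% of those of H2-Oa overlap BC051537 and 3.45% of those of Ciita overlap Dexi.

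Promoter stretches are shown for the 4 chromosome 17 members whose stretch held a box and no annotated exon, because the boxes are shared by many class II genes. The stretches of H2-DMa, which held neither box on the gene's strand, are not shown. Each runs from 120 to 31 bases before the RefSeq start (GRCm38.p6), 5′ to 3′ on the gene's own strand, with an X-box core (GCAAC) and the Y box (TGATTGG) in capitals where these letters occurred.
H2-Aa (chr17:34287854-34287943, minus strand): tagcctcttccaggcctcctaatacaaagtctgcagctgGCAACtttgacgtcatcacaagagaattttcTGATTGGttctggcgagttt
H2-Eb1 (chr17:34305747-34305836, plus strand): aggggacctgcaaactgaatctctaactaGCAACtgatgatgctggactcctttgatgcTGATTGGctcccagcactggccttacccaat
H2-Ob (chr17:34238785-34238874, plus strand): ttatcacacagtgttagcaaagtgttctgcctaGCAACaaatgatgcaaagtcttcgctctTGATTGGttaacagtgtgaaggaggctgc
H2-DMb2 (chr17:34145129-34145218, plus strand): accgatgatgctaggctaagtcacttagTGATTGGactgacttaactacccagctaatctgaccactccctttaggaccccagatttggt
TGATTGG occurred on either strand in 6 of the 7 members with a promoter entry, all but H2-DMa, and in 7.82% of all 32851 promoters of 300 bases. GCAAC occurred in 5 of 7 against 35.2%. GCAAC followed by TGATTGG at 20 to 40 bases on the same strand occurred in 4 members, H2-Aa, H2-Eb1, H2-Oa and H2-Ob, and in 0.204% of all promoters. A match of letters is a description and does not show that the site is used. H2-Ab1, Ciita and Cd74 had no entry.

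In untimed KLS cells, Daxx-KO and WT were compared within the same sort gate, although genes of that gate themselves differed as given above. All 3 measured chains and the invariant chain fell in Daxx-KO. H2-Aa, the α-chain of I-A, had normalized counts of 457.6 and 578.7 in WT and 48.1 and 31.5 in Daxx-KO. Its partner H2-Ab1 had 388.8 and 385.8 against 43.8 and 21.5, and H2-Eb1, the β-chain of I-E, 321.7 and 311.8 against 10.9 and 13.3. Cd74 had 1237 and 1085 against 82.0 and 71.2. For each of these genes both WT libraries stood far above both Daxx-KO libraries. By limma with Benjamini-Hochberg adjustment over all genes tested, H2-Eb1 fell by 4.60 ± 0.29 (SE) on the log2 scale (26.1-fold, adjusted p = 1.753e-05), and Cd74 fell by 3.904 ± 0.15 (15.2-fold, adjusted p = 4.544e-06). H2-Aa fell by 3.69 ± 0.25 (13.0-fold) and H2-Ab1 by 3.61 ± 0.32 (11.9-fold).

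The regulator and the loading genes differed less. Ciita had 49.9 and 56.8 in WT and 20.8 and 10.6 in Daxx-KO, a fall by 1.77 ± 0.48 (adjusted p = 0.02875, limma). H2-DMa, the α-chain of H2-M, had 235.7 and 332.4 against 142.2 and 179.1, a fall by 0.81 ± 0.22 (adjusted p = 0.02845, limma). Both calls were lost when single libraries were left out: without WT 2, Daxx-KO 1 or Daxx-KO 2, the adjusted p for Ciita was 0.07659, 0.1204 and 0.262, and for H2-DMa 0.1193, 0.3129 and 0.2171. H2-Ob, the β-chain of H2-O, had 187.5 and 315.2 against 155.3 and 116.7 (log2 difference -0.85, adjusted p = 0.05354, limma). It passed the threshold without WT 1 (adjusted p = 0.01187). The β-chain genes of H2-M, H2-DMb1 (96.3 and 68.9 against 40.5 and 49.7) and H2-DMb2 (36.1 and 10.3 against 3.3 and 1.2), did not pass by limma with all libraries. With all libraries, edgeR and DESeq2 called H2-DMb2 (adjusted p = 0.0295 and 0.01568) and H2-Ob (0.03695 and 0.0286) lower. Without WT 2 the limma log2 difference of H2-DMb2 was -3.59. No library of one genotype overlapped the other for any of the 9 genes.

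**Figure D1:**
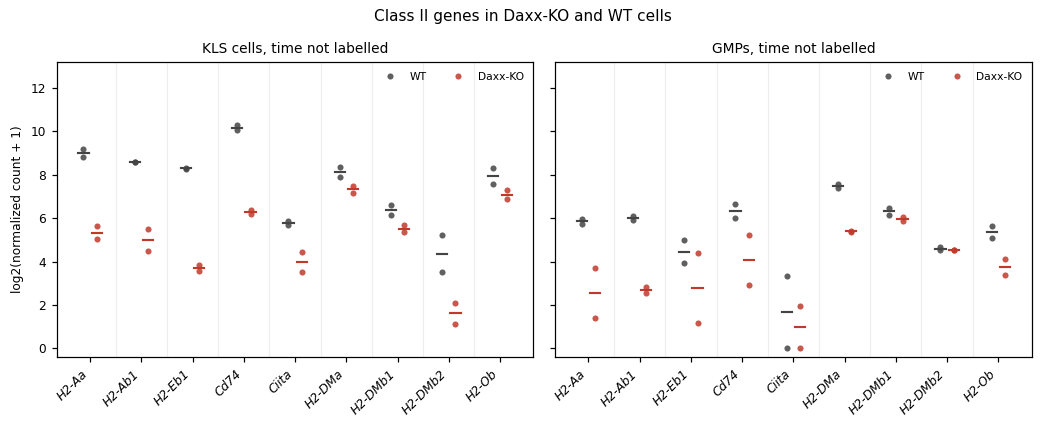
Normalized counts of the 9 detected class II genes in untimed KLS cells and GMPs (log axis), each point a library, 2 WT and 2 Daxx-KO libraries per cell type. In KLS cells all 9 genes lie lower in Daxx-KO, with the widest separation for H2-Aa, H2-Ab1, H2-Eb1 and Cd74.

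In all, limma called 6 of 9 tested members lower and 0 higher, where 23.1% of the 13508 genes tested were called and 12.5% called lower. The 9 members without overlap stand beside 62.8% of all genes. The median log2 difference over the 9 members was -2.74, and over all genes tested 0.03. Of 18 tested genes that lie between Daxx and Btnl2, on the same stretch of chromosome 17 as the class II genes but not among them, 2 were called higher and 0 lower, with a median of 0.46. Of 11 class I presentation genes tested, 3 were called higher (H2-K1 by 0.66 and H2-D1 by 0.86, both class I heavy chains, and Tapbp, which holds them in the peptide-loading complex, by 1.26) and 0 lower. Of 8 listed class II promoter factors, 1 was called, Nfya, a subunit of the Y-box factor, higher by 0.50.

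Other lists fixed for class II biology moved in part. Of 7 tested inducers and repressors, Irf4 fell by 6.70 and Prdm1, the plasma cell repressor of Ciita, by 2.61, whereas Spi1 rose by 1.42. Of 5 tested genes of costimulation and surface control, Cd86 fell by 3.70, March1, a ubiquitin ligase that removes class II from the surface, by 2.56 and Cd83, which opposes that removal, by 2.34. Of 7 lysosomal processing genes, the thiol reductase Ifi30 fell by 2.52 and the protease Ctsb rose by 0.69. Of 13 interferon-responsive genes tested, 1 was higher and 2 lower, with a median of 0.10.

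Markers of other cell types moved with these genes. Among 9 tested B-cell markers 6 fell and 1 rose, and the summed normalized count of the 12 listed was 1395 to 2296 in WT and 236 to 264 in Daxx-KO (806 to 855 against 217 to 255 without Ebf1). Dendritic cell markers fell for 4 and rose for 1 of 10 tested, with sums of 6442 to 8550 against 4437 to 4766, and monocyte and macrophage markers rose for 4 of 7 tested, with sums of 512 to 1010 against 2681 to 3289 (231 to 320 against 805 to 892 without Lyz2). Of plasma cell markers, 3 of 4 tested fell and 1 rose, with sums of 1766 to 3934 against 629 to 763. Without Jchain, which links polymeric antibodies, the plasma cell sums were 475 to 599 against 622 to 745. Most of that remainder was Xbp1 (431.8 and 353.1 against 613.7 and 742.4). Sdc1 (115.3 and 75.8 against 0 and 0.9) and Mzb1 (37.8 and 39.6 against 1.1 and 0.3) were lower in Daxx-KO, and Tnfrsf17 overlapped. Among the defining markers, the B-cell receptor component Cd79a was 48.2 and 32.7 against 4.4 and 1.5, and the dendritic cell integrin Itgax 68.8 and 55.1 against 1.1 and 0.3. Csf1r was 31.0 and 46.5 against 171.7 and 174.9. C1qa was 0 in all 4 libraries, and Cd3e was 10.3 in WT 1 and 0 in the other three. The part of these cell types in the class II result was not tested.

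In untimed GMPs the class II genes were low in WT and lower in Daxx-KO. H2-Aa had 61.1 and 52.4 in WT and 12.2 and 1.6 in Daxx-KO, and H2-Ab1 67.7 and 59.6 against 6.1 and 4.9. Cd74 had 62.4 and 100.3 against 36.5 and 6.5. The WT libraries were above the Daxx-KO libraries for all 3, and each fell: H2-Aa by 3.29 ± 0.74, H2-Ab1 by 3.32 ± 0.48 and Cd74 by 2.25 ± 0.67 (adjusted p = 0.008476, 0.0008396 and 0.02931, limma). H2-Eb1 did not pass (14.3 and 30.7 against 20.3 and 1.2), with the first Daxx-KO library between the WT libraries. Without Daxx-KO 1 it passed (adjusted p = 0.008838). Ciita, at 0 and 9.0 against 0 and 2.9, was too low to test.

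The clearest difference among the loading genes was in H2-DMa, with 165.2 and 188.9 in WT and 40.6 and 42.0 in Daxx-KO, a fall by 2.07 ± 0.23 (4.29-fold, adjusted p = 0.0002247, limma). H2-Ob had 48.1 and 32.5 against 16.2 and 9.4 and fell by 1.60 ± 0.49 (adjusted p = 0.03344, limma). H2-DMb1 (70.2 and 87.6 against 64.9 and 56.7) and H2-DMb2 (22.1 and 24.4 against 22.3 and 22.4) did not pass. In all, 5 of 8 tested members were called lower, where 33% of 12744 genes were called and 16.5% called lower, and 6 of 8 did not overlap, beside 67.2% of genes. The median over the members was -1.88, and over all genes -0.01. The calls of H2-Aa, Cd74 and H2-Ob were lost without WT 1 (adjusted p = 0.08186, 0.08995 and 0.2429) or WT 2 (0.07562, 0.2182 and 0.1088), and that of H2-Ob also without Daxx-KO 2 (0.06605), leaving H2-Ab1 and H2-DMa.

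Class I genes went the other way here too, with 6 of 11 tested called higher, led by H2-Q7 (2.07), H2-Q4 (1.247) and Tapbp (0.65), and 0 lower. Of the inducers, Irf8 fell by 2.71 while Spi1 rose by 0.86 and Irf1 by 0.72. Of the lysosomal genes, the invariant-chain protease Ctss fell by 3.87 and Ifi30 by 3.30, while Ctsl rose by 1.90. Among 8 tested monocyte and macrophage markers 4 rose and 4 fell (Csf1r by 3.06), with sums of 3620 to 3810 in WT and 5413 to 8042 in Daxx-KO. Lyz2, the lysozyme gene, carried that rise (866 to 923 against 3785 to 6297), and without it the sums were 2754 to 2887 against 1628 to 1746. Dendritic cell markers fell for 2 and rose for 1 of 7 tested, with sums of 1688 to 1735 against 1046 to 1113, and B-cell marker sums were 235 to 269 against 582 to 684. Without Bank1 (30.7 to 45.5 against 377.1 to 465.8) the B-cell sums were 190 to 239 against 205 to 219. Csf1r was 809.2 and 996.7 against 139.9 and 81.2, and Itgax 7.8 and 16.3 against 2.0 and 0.4. Cd79a was near 0 (3.9 and 2.7 against 2.0 and 9.0), C1qa was 2.0 in Daxx-KO 1 and 0 in the other three, and Cd3e was 0 in all 4. The part of these cells in the result was not tested.

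In KLS cells at 3 w.p.i. no class II gene differed between Daxx-KO and WT by the test. H2-Aa had 618.2, 261.3 and 333.1 in WT and 139.2, 327.5 and 256.3 in Daxx-KO. H2-Ab1 had 887.3, 429.0 and 513.2 against 408.4, 1142 and 693.6, and Cd74 1235, 639.1 and 3496 against 1713, 2397 and 3239. The genotypes overlapped for each, and the WT animals alone spanned 639.1 to 3496 for Cd74. By limma 0 of 9 members were called and 0 had an unadjusted p under 0.05, by edgeR and DESeq2 0 were called, and 0.257% of all 15200 genes were called (0.0724% lower and 0.184% higher). The members had a median log2 difference of 0.24, and all genes 0.00. The 95% interval of the log2 difference was -1.74 to 0.27 for H2-Aa and -0.35 to 1.86 for Cd74. Daxx-KO animal 2 was rich in B-lineage transcripts (Cd79a 1269.6, against 79.2 and 136.0 in the other Daxx-KO animals), and without it 0 members were called. The unnumbered WT animal, with the highest Cd74, also stood apart from WT 1 and WT 2. Its Jchain was 7513 against 451.8 and 108.6, its Mzb1 310.1 against 2.2 and 1.8, and its Mrc1 1056 against 81.1 and 72.4. Only through this animal did Cd74 overlap between the genotypes, and leaving it out brought no call.

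The comparison with DKO asked what loss of Pu.1 adds to loss of Daxx, and 2 of the genes that govern peptide loading were lower in DKO KLS cells. H2-DMa had 217.5 and 259.3 in the KLS libraries labelled DKO, against 477.7, 418.4 and 438.2 in WT and 431.1, 780.6 and 593.2 in Daxx-KO. H2-Ob had 73.8 and 80.0, against 292.9, 244.5 and 188.1 in WT and 268.1, 551.8 and 253.2 in Daxx-KO. For both genes the DKO libraries were the lowest of all 8. These 2 comparisons share the DKO libraries, so their values are given side by side. Against WT, H2-DMa fell by 0.90 ± 0.24 (1.87-fold, adjusted p = 0.03221, limma) and H2-Ob by 1.62 ± 0.35 (3.15-fold, adjusted p = 0.0141, limma). Against Daxx-KO, H2-DMa fell by 1.30 ± 0.24 (2.52-fold, adjusted p = 0.006763, limma) and H2-Ob by 2.11 ± 0.35 (4.65-fold, adjusted p = 0.003799, limma).

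These were 2 of 9 tested members in each comparison, where 17.6% of all genes were called against WT (8.4% lower and 9.24% higher) and 15.4% against Daxx-KO (7.22% lower and 8.17% higher). Of the 9 members, 3 were apart and lower in each comparison, beside 49.7% of all genes without overlap against WT and 44.6% against Daxx-KO. The median over the members was -0.85 against WT and -0.49 against Daxx-KO, and over all genes 0.00 and -0.01. The chain genes were not called: H2-Aa had 262.5 and 99.3 in DKO, H2-Ab1 487.7 and 358.5, and H2-Eb1 217.5 and 62.6, each with at least 1 library inside the range of another genotype. Cd74, at 2636 and 2682, also lay inside the WT range. Ciita had 43.1 and 34.7 against 71.3, 103.3 and 75.0 in WT, without overlap, but was not called (adjusted p = 0.1429, limma). The H2-DMa call against WT was lost without WT 1 (adjusted p = 0.09884), WT 2 (0.074), Daxx-KO 3 (0.05097), DKO 1 (0.2185) or DKO 2 (0.06024). The H2-Ob call against WT was lost without WT 1 (0.0555) or DKO 1 (0.113), and that of H2-DMa against Daxx-KO without DKO 1 (0.08011). Cd74 passed as higher against WT without the unnumbered WT animal (adjusted p = 0.008751), which held the highest count.

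**Figure D2:**
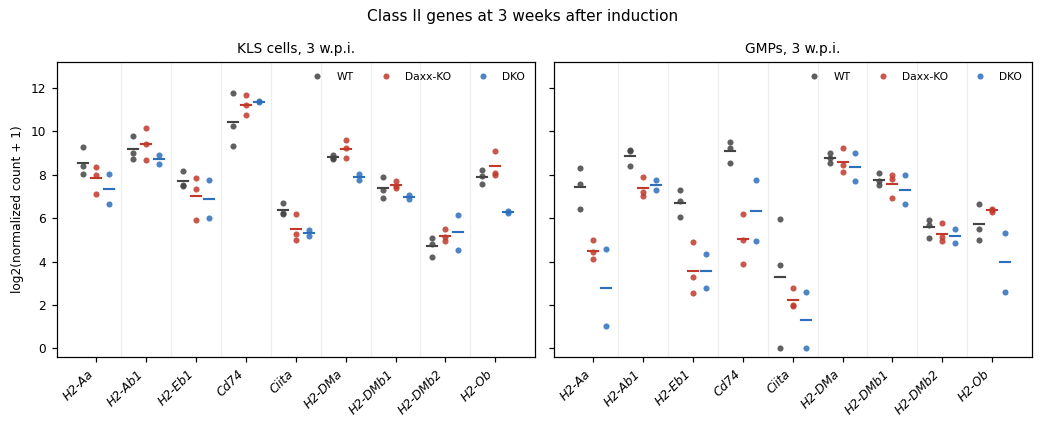
Normalized counts of the 9 detected class II genes at 3 w.p.i. in KLS cells and GMPs (log axis), each point a library from 1 animal, 3 WT, 3 Daxx-KO and 2 labelled DKO. In KLS cells DKO is the lowest of all 8 libraries for H2-DMa and H2-Ob, and in GMPs the chain genes and Cd74 are highest in WT.

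Other lists moved in DKO KLS cells. Against WT, of 15 interferon-responsive genes tested 6 fell, led by Iigp1 (2.20), Oas1a (2.13) and Gbp3 (1.94), and 0 rose. Of the class II promoter factors Nfya fell by 1.01 and Rfx5, a subunit of the X-box factor, by 0.75, while Nfyb rose by 0.98. Cd86 fell by 1.99 and March8 rose by 0.69. The cytokine receptor Flt3, listed with the dendritic cell markers, fell by 2.66, and that list had sums of 4852 to 5747 in DKO, 9055 to 10896 in WT and 13702 to 16037 in Daxx-KO. Monocyte and macrophage sums were 9394 to 10880 in DKO and 1942 to 7880 in WT, and without the adhesion molecule gene Vcam1 (6712 to 8365 against 107 to 1320) they were 2515 to 2682, inside the 1835 to 6561 of WT. T and NK cell sums were 2565 to 2772 and 296 to 770, and 62.6 to 597 and 48.6 to 266 without Nkg7, a cytotoxic granule gene. Plasma cell sums were 17303 to 18176 in DKO and 801 to 10955 in WT, and 4849 to 4900 and 693 to 3441 without Jchain. Most of that remainder in DKO was Xbp1 (3989 and 3855 against 521.7 to 2433 in WT). Sdc1 overlapped (434.0 and 589.8 against 161.0 to 656.3), whereas Mzb1 (379.4 and 411.5 against 1.8 to 310.1) and Tnfrsf17 (46.9 and 43.4 against 0.9 to 42.0) did not. Itgax was 12.5 in both DKO libraries, 4.3, 18.5 and 16.0 in WT and 48.7, 86.1 and 69.0 in Daxx-KO. Cd79a (307.6 and 165.8 in DKO, 24.9 to 111.0 in WT), Csf1r (54.6 and 257.3, 289.6 to 691.3), C1qa (10.5 and 66.5, 54.7 to 221.1) and Cd3e (87.2 and 5.8, 0 to 12) varied widely within groups. The part of these cells in the differences of H2-DMa and H2-Ob was not tested.

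In GMPs at 3 w.p.i. the chain genes and Cd74 were highest in WT, but no member passed the test over all genes. Cd74 had 606.7, 736.1 and 375.4 in WT and 31.3, 72.2 and 13.8 in Daxx-KO. H2-Aa had 192.2, 317.7 and 84.9 against 20.5, 16.2 and 30.6, and H2-Eb1 109.1, 154.5 and 65.3 against 4.9, 28.5 and 8.9. H2-Ab1 had 548.5, 561.3 and 333.0 against 148.4, 130.2 and 234.2. For each of these 4 genes every WT library was above every Daxx-KO library, as was so in either direction for 8.1% of all genes. The mean was 14.6-fold lower in Daxx-KO for Cd74 (adjusted p = 0.1544, limma), 8.84-fold for H2-Aa (0.792), 7.78-fold for H2-Eb1 (0.374) and 2.81-fold for H2-Ab1 (0.2643).

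By limma 0 of 9 members were called, where 0.0948% of 13714 genes were called (0.0292% lower and 0.0656% higher), 4 members had an unadjusted p under 0.05 (3.16% of all genes did), and edgeR called 0. DESeq2 called all 4, with adjusted p from 1.564e-06 for Cd74 to 0.003268 for H2-Eb1. The call of Cd74 turned on the libraries of the third genotype in the fit: it passed without DKO a (adjusted p = 0.02943), without DKO b (0.03763) and in a fit of WT and Daxx-KO alone (0.02616). Among the loading genes, H2-DMa had 438.4, 376.9 and 512.5 in WT against 349.6, 275.6 and 601.9, and H2-DMb1 182.8, 274.5 and 207.8 against 253.9, 121.7 and 226.3. H2-Ob had 44.7, 99.7 and 30.5 against 84.96, 82.7 and 78.1, and Ciita 13.5, 60.9 and 0 against 5.9, 2.9 and 3.0. These genes overlapped between the genotypes. The median over the 9 members was -1.03, and over all genes -0.01.

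In GMP libraries labelled DKO the same 4 genes were again below all WT libraries: H2-Aa at 1.0 and 22.7, H2-Ab1 at 157.3 and 219.0, H2-Eb1 at 19.3 and 5.9, and Cd74 at 215.1 and 29.6. Against WT, limma called 0 of 9 members and 0.292% of all genes (0.0802% lower and 0.211% higher), with 5 members at an unadjusted p under 0.05 (7.01% of all genes), and 18.6% of all genes did not overlap. DESeq2 called 3 (H2-Aa, H2-Eb1 and H2-Ab1) and edgeR 0. H2-Aa, 16.7-fold lower (adjusted p = 0.1181, limma), passed without DKO b (adjusted p = 0.01446). Against Daxx-KO, limma called 0 members and 0.0583% of all genes, and edgeR and DESeq2 0. The 1 member at an unadjusted p under 0.05 and without overlap, beside 20.7% of all genes, was H2-Ob, at 5.1 and 39.5 against 84.96, 82.7 and 78.1 (3.68-fold lower, adjusted p = 0.3591, limma).

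No gene of the other lists was called in GMPs at 3 w.p.i. Summed B-cell markers were 577 to 897 in WT and 910 to 10212 in Daxx-KO, monocyte and macrophage markers 10724 to 31503 and 8702 to 25562, and dendritic cell markers 1857 to 3267 and 3396 to 3565. Cd79a was 11.4 to 19.6 in WT and 37.6 to 236.7 in Daxx-KO. C1qa was 90.4, 103.3 and 37.0 in WT and 47.9, 41.8 and 23.7 in Daxx-KO, Itgax 34.3, 52.1 and 7.6 against 13.7, 40.9 and 13.8, and Csf1r 1924 to 2359 against 1668 to 2099. Cd3e was 0 in all but DKO a (8.1). The part of other cell types in the result was not tested.

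**Figure D3:**
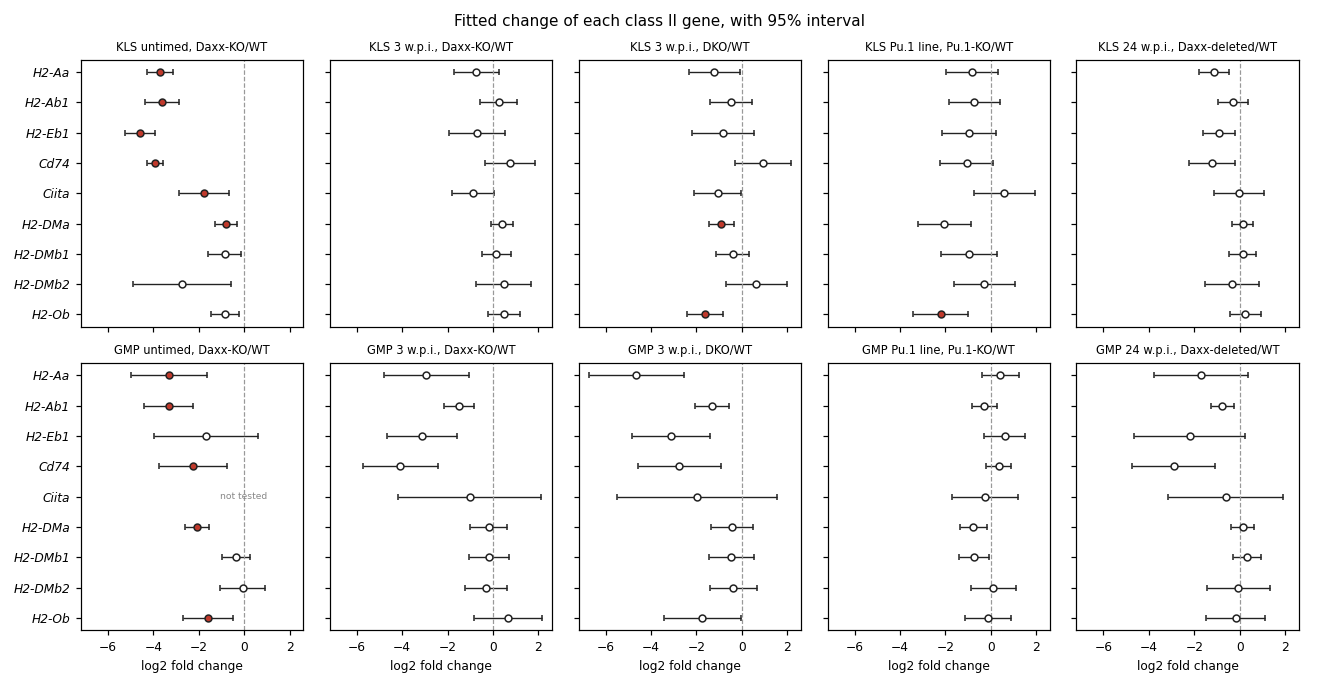
Log2 difference between genotypes for each tested class II gene, 1 panel per comparison against WT, with the 95% interval from limma as bars and genes called at an adjusted p under 0.05 in red. Red points are found in untimed KLS cells (6), untimed GMPs (5), DKO KLS cells (H2-DMa and H2-Ob) and Pu.1-KO KLS cells (H2-Ob). DKO against Daxx-KO is not drawn.

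The Pu.1 line allowed the same genes to be read with Daxx intact. In its KLS cells, H2-Ob had 601.8 and 339.2 in WT and 190.6 and 48.6 in libraries labelled Pu.1-KO, and H2-DMa 862.0 and 475.9 against 217.6 and 110.1. Both WT libraries were above both Pu.1-KO libraries for each gene. The same held for Cd34 (3689 and 2191 in WT, 849.1 and 482.6 in Pu.1-KO), Kit (11642 and 9582 against 7411 and 2636) and Ly6a (130.1 and 115.6 against 49.1 and 81.3). Mpo overlapped (22948 and 17150 against 28206 and 11262), and the part of these differences was not tested. H2-Ob fell by 2.22 ± 0.61 (3.93-fold, adjusted p = 0.04553, limma), and H2-DMa, 4.08-fold lower, had an adjusted p of 0.05191. Which gene passed turned on the method. DESeq2 called H2-DMa (adjusted p = 0.03806) and not H2-Ob (0.05479), edgeR did not call H2-Ob (0.05538), and limma with TMM scaling also called H2-DMa (0.0395). By limma 1 member of 9 was thus called, where 0.81% of 23459 genes were called, 0.341% lower and 0.469% higher, and 8 of 9 did not overlap, beside 65.6% of all genes. The libraries are uneven: Pu.1-KO b correlated with the rest of its table at a median r of 0.811, against 0.910 to 0.926 for the others, and without it the adjusted p for H2-Ob was 0.6263. That call was also lost without WT a (0.9672) or WT b (0.2276). Without Pu.1-KO a, H2-Ob, H2-DMa (0.002228) and Cd74 (0.02942) were called.

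The chain genes of these cells had 493.4 and 373.8 against 318.1 and 178.6 for H2-Aa, 1229 and 939.2 against 618.7 and 682.9 for H2-Ab1, and 318.5 and 305.5 against 175.4 and 145.9 for H2-Eb1. Cd74 had 2205 and 1494 against 1090.1 and 702.8. In normalized counts all 4 were lower in Pu.1-KO without overlap, by 1.67 to 2.06-fold, and none was called. In CPM (reads scaled to the library's total in genes) the log2 differences of this comparison lie about 0.47 higher, and H2-Ab1 overlapped (61.2 and 58.3 against 40.6 and 61.8), while H2-Aa (24.6 and 23.2 against 20.9 and 16.1), H2-Eb1 (15.9 and 18.9 against 11.5 and 13.197), Cd74 (109.9 and 92.7 against 71.5 and 63.6), H2-DMa (42.9 and 29.5 against 14.3 and 9.96) and H2-Ob (30.0 and 21.0 against 12.5 and 4.40) did not. In normalized counts Ciita had 63.7 and 115.6 against 95.9 and 174.7. The median over the 9 members was -0.96 and over all genes 0.12. It was -1.27 over the 20 tested neighbours between Daxx and Btnl2 and -1.32 over 11 class I genes, with 0 called in either list, and Daxx itself had 920.3 and 625.3 against 478.4 and 295.1. Summed dendritic cell markers were 14135 to 16102 in WT and 6541 to 10496 in Pu.1-KO (9160 to 9492 against 5315 to 7602 without Flt3), and B-cell markers 5731 to 5844 against 7746 to 16784. Cd79a was 157.2 and 83.5 against 298.2 and 121.6, Itgax 92.2 and 142.6 against 128.7 and 155.5, Csf1r 996.2 and 724.9 against 596.5 and 442.9, C1qa 421.5 and 233.7 against 230.4 and 308.5, and Cd3e 1.4 and 32.9 against 18.7 and 37.8. The part of these cells was not tested.

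**Figure D4:**
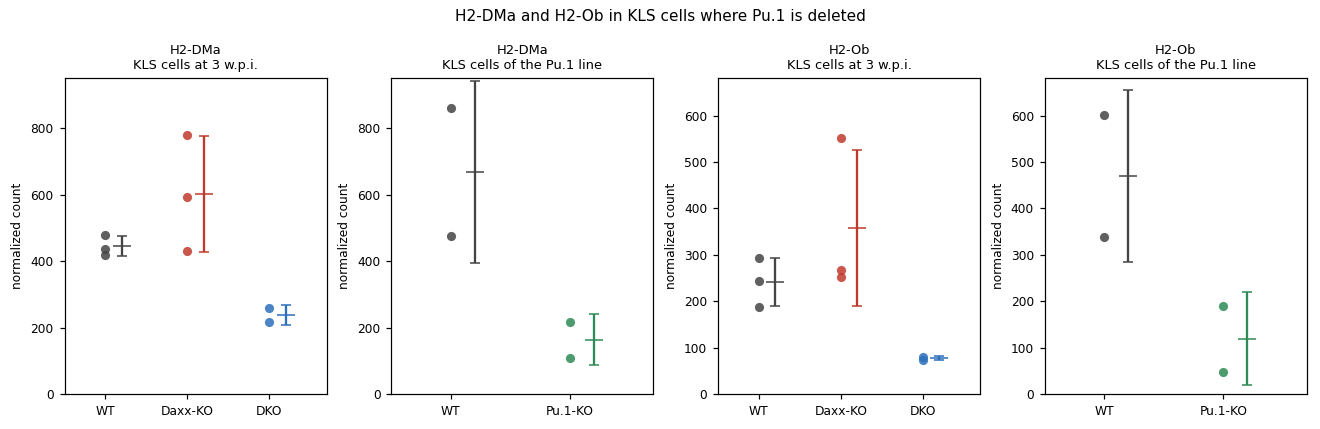
Normalized counts of H2-DMa and H2-Ob in KLS cells at 3 w.p.i. (3 WT, 3 Daxx-KO and 2 DKO animals) and of the Pu.1 line (2 WT and 2 Pu.1-KO animals), points for libraries and bars for the mean ± SD. H2-Ob sits at 73.8 and 80.0 in DKO and at 190.6 and 48.6 in Pu.1-KO, below the other libraries of each panel.

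In GMPs of the Pu.1 line no member passed after adjustment, and 2 of 9, H2-DMa and H2-DMb1, had an unadjusted p under 0.05, as had 34% of 19337 genes. H2-DMa had 315.3 and 333.0 in WT and 138.6 and 261.1 in libraries labelled Pu.1-KO (adjusted p = 0.05549, limma), and H2-DMb1 193.6 and 246.8 against 143.2 and 118.2 (0.09743). Without Pu.1-KO b, H2-DMa (adjusted p = 4.146e-05) and H2-Ab1 (0.02209) were called lower, and without Pu.1-KO a H2-DMb1 (0.03264). H2-Ob had 54.0 and 52.2 against 59.3 and 39.4, overlapping. H2-Aa (88.9 and 61.4 against 95.5 and 103.6) and H2-Eb1 (51.9 and 57.5 against 67.0 and 105.3) were higher in both Pu.1-KO libraries than in WT without being called, H2-Ab1 had 338.6 and 428.3 against 245.6 and 393.0, and Cd74 199.99 and 327.7 against 281.8 and 375.9. Limma called 0 of 9, edgeR and DESeq2 0, and 17.6% of all genes were called (8.49% lower and 9.15% higher). Of the 9, 2 were lower and 3 higher without overlap, beside 65% of all genes. The median over the members was -0.13 and over all genes 0.00.

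Of 11 B-cell markers tested in these GMPs, 6 were called higher (Cd22 by 2.61 and Pax5 by 1.81 among them) and 5 did not pass, beside 9.15% of all genes called higher. Also called higher were Cd40 (2.35), March1 (1.134) and Cd86 (0.96) of 6 costimulation and surface genes, and Ctss (1.37), Ifi30 (1.249) and Lgmn (1.04) of 7 lysosomal genes. Summed B-cell markers were 1822 to 1868 in WT and 3504 to 5824 in Pu.1-KO, and monocyte and macrophage markers 8758 to 9083 against 18244 to 22119 (4660 to 5034 against 4994 to 7079 without Lyz2). Cd79a was 33.9 in both WT libraries and 134.7 and 71.1 in Pu.1-KO, Itgax 15.9 and 20.9 against 60.1 and 36.0, C1qa 8.5 and 7.8 against 30.8 and 44.5, Csf1r 1516 and 1554 against 1134 and 1750.0, and Cd3e 10.6 and 1.3 against 10.01 and 0.9. Their part in the class II values was not tested.

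In KLS cells at 24 w.p.i. H2-Aa, H2-Eb1 and Cd74 were higher in both WT libraries than in every Daxx-deleted one, and none of these was called by limma. H2-Aa had 1245 and 988.5 in WT and 706.4, 512.1, 374.3 and 471.9 in the 4 Daxx-deleted libraries, and H2-Eb1 692.6 and 748.8 against 546.5, 391.1, 268.5 and 359.1. Cd74 had 6065 and 6472 against 1447, 5468, 1927 and 3312. These 3 genes did not overlap, beside 17.8% of all genes, and were 2.16-fold (adjusted p = 0.1659, limma), 1.84-fold (0.3637) and 2.06-fold lower (0.4322). H2-Ab1 (1914 and 1980.3 against 2313, 1954, 1115 and 1314), H2-DMa (1193 and 1173 against 1037 to 1472) and H2-Ob (452.5 and 623.4 against 487.2 to 824.7) overlapped. By limma 0 of 9 members were called, 3 had an unadjusted p under 0.05 (8.31% of all genes did) and 0.807% of 16485 genes were called (0.309% higher). DESeq2 called H2-Aa (adjusted p = 0.02226) and edgeR 0, and without Daxx-deleted b Cd74 passed in limma (0.04531). Over the members the median was -0.28 and over all genes -0.02.

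Of the marker lists in these cells, Bank1, a B-cell scaffold, fell by 2.55, and no other listed gene was called. Summed plasma cell markers were 14242 to 15488 in WT and 4863 to 9510 in the Daxx-deleted libraries (4267 to 5202 and 2434 to 4753 without Jchain), and B-cell markers 5029 to 6941 and 4835 to 9762. C1qa was 56.7 and 114.2 in WT and 0, 0, 1.0 and 14.2 in Daxx-deleted, Itgax 72.6 and 86.9 against 11.7 to 187.0, Csf1r 461.7 and 662.8 against 225.0 to 1166, Cd79a 324.5 and 329.0 against 128.1 to 466.9, and Cd3e 2.6 and 3.2 against 0 to 14.7. Their part in the class II differences was not tested.

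In GMPs at 24 w.p.i., Cd74 had 406.1 and 341.9 in WT and 12.1, 20.2, 108.1 and 203.3 in the Daxx-deleted libraries, and H2-Ab1 607.0 and 639.6 against 362.1, 292.5, 369.9 and 452.7. H2-Aa had 85.2 and 74.8 against 31.8, 3.7, 44.9 and 53.2, and H2-Eb1 24.0 and 86.8 against 6.1, 2.8, 16.5 and 21.9. All 4 were lower in every Daxx-deleted library than in either WT library, beside 24.8% of all genes without overlap. Limma called 0 of 9 members where 3.63% of 16894 genes were called (1.4% lower and 2.23% higher), edgeR and DESeq2 called 0, and 2 had an unadjusted p under 0.05, beside 15.7% of all genes: Cd74 (4.35-fold lower, adjusted p = 0.08491) and H2-Ab1 (1.69-fold, 0.09855). Without Daxx-deleted d, which had the highest Cd74 of its group, Cd74 passed (0.02053). H2-DMa (623.4 and 480.5 against 434.6 to 762.7), H2-DMb1 (231.4 and 349.6 against 248.5 to 427.6) and H2-Ob (64.4 and 78.3 against 33.3 to 99.8) overlapped. For the members together the median was -0.63 and over all genes 0.01.

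Irf8, a transcription factor of the inducer list, rose by 0.77 in these GMPs. Of 7 lysosomal genes 3 rose, Ifi30 by 1.45, Ctsh by 1.07 and Ctsd by 0.79. Of the macrophage markers Lyz2 rose by 1.81 and Vcam1 fell by 1.12, with sums of 13694 to 14204 in WT and 22318 to 40595 in the Daxx-deleted libraries (7251 to 7577 and 6814 to 7887 without Lyz2). C1qa was 89.5 and 61.2 against 0, 0.9, 0 and 10.2, Csf1r 2145 and 2158 against 2698 to 3607, Itgax 44.8 and 26.4 against 2.7 to 40.3, Cd79a 45.9 and 56.98 against 15.6 to 76.6, and Cd3e 0 and 0 against 0 to 28.4. Their part in the result was not tested.

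Levels across cell types are set side by side without a test, because the tables were normalized separately. In CPM, the sum of H2-Aa, H2-Ab1, H2-Eb1 and Cd74 in WT was highest in KLS cells at 24 w.p.i. (413 and 432) and in untimed KLS cells (348 and 362), followed by KLS cells at 3 w.p.i. (114 to 341) and of the Pu.1 line (193 and 212). In WT GMPs it was 64.8 to 146.7 at 3 w.p.i., 51.0 and 62.6 in the Pu.1 line, 49.1 and 51.1 at 24 w.p.i. and 32.0 and 38.1 in the untimed set. Long-term stem cells (55.9 to 194.8), MPP3 (60.6 to 141.6) and MPP4 cells (63.2 to 144.1) lay between, and their ranges overlapped those of KLS cells and of GMPs at 3 w.p.i.

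KLS cells and GMPs of the same animal could be paired. At 3 w.p.i. H2-Eb1 and H2-Ob were higher in KLS cells in 8 of 8 animals (median ratio 7.32 and 4.62), and H2-Aa and Cd74 in 7 of 8, the exception being WT 2. The Cd74 ratio was 2.04, 0.795 and 9.30 in WT, 53.6, 31.1 and 213.7 in Daxx-KO and 10.2 and 85.03 in DKO, and the H2-Aa ratio 3.22, 0.753 and 3.92 in WT and 6.63, 19.0 and 7.64 in Daxx-KO. H2-DMa was higher in KLS cells in 4 of 8 animals at 3 w.p.i. (median ratio 0.958) and in 6 of 6 at 24 w.p.i. (2.21). At 24 w.p.i. H2-Aa, H2-Eb1, Cd74 and H2-Ob were higher in 6 of 6 animals, with median ratios of 13.22 for H2-Aa, 21.7 for H2-Eb1, 17.6 for Cd74 and 7.62 for H2-Ob. H2-DMb1 was close to even at both times (higher in KLS cells in 3 of 8 and 5 of 6 animals, median ratio 0.796 and 1.10).

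**Figure D5:**
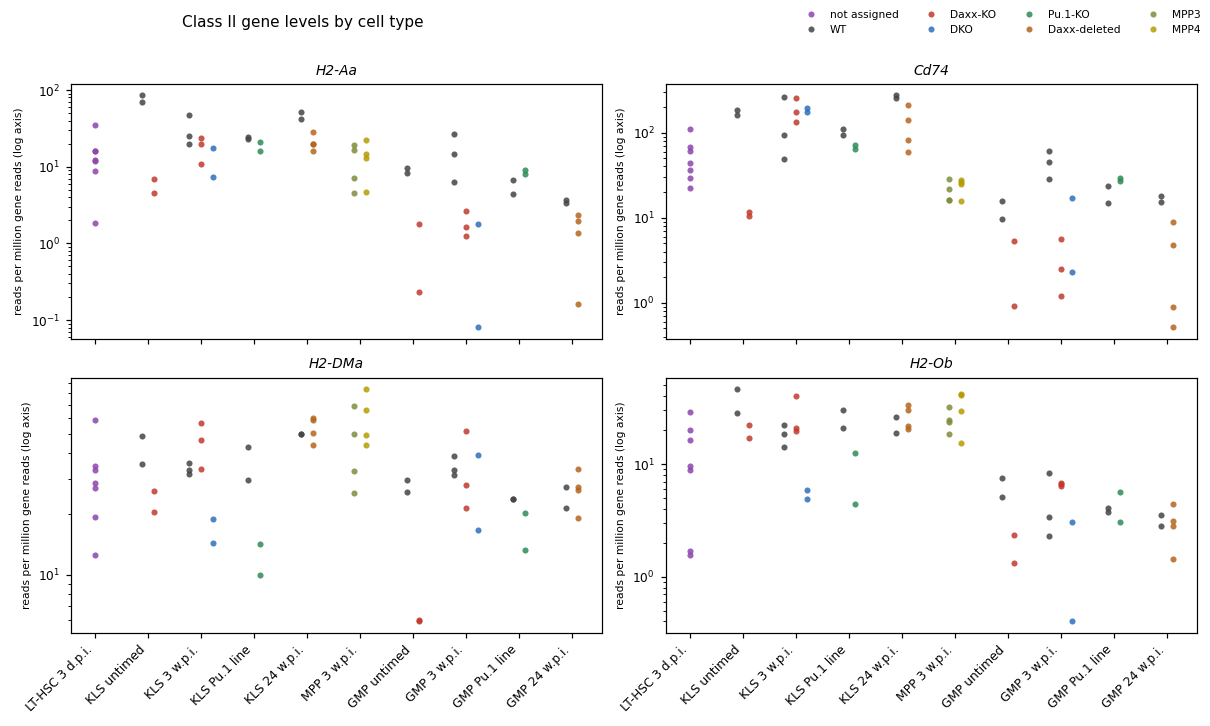
CPM of H2-Aa, Cd74, H2-DMa and H2-Ob in each library (log axis), grouped by cell type and set, coloured by genotype where known. In the same animals H2-Ob is higher in KLS cells than in GMPs in 8 of 8 at 3 w.p.i. and 6 of 6 at 24 w.p.i., Cd74 in 7 of 8 and 6 of 6, and H2-DMa in 4 of 8 and 6 of 6.

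Per length (RPKM, CPM per kilobase of exon), Cd74 was the most abundant member in WT KLS cells at 3 w.p.i. (median 55.5, range 28.9 to 157), above H2-Ab1 (15.0, 12.7 to 26.1) and H2-DMa (9.57, 9.21 to 10.5). H2-Eb1 (7.13), H2-DMb1 (7.13) and H2-Aa (6.61) followed with overlapping ranges, then H2-Ob (3.45), H2-DMb2 (1.164) and Ciita (0.593), the last pair overlapping. In WT GMPs at 3 w.p.i. the order began with Cd74 (27.2, 16.9 to 36.3), H2-Ab1 (16.1, 9.78 to 18.1), H2-DMa (9.58) and H2-DMb1 (9.32), and Cd74 overlapped H2-Ab1. In Daxx-KO GMPs H2-DMb1 (11.5) and H2-DMa (8.06) headed the order, with Cd74 at 1.48, so the loader genes stood above the invariant chain.

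Long-term stem cells at 3 d.p.i. expressed the set at levels that varied between libraries whose genotypes are not assigned. Daxx was 81.7, 69.5 and 102.4 in libraries c, d and e and 195.5 to 384.2 in the rest, and genotypes were not assigned from it. The CPM sum of H2-Aa, H2-Ab1, H2-Eb1 and Cd74 was 74.9, 91.9 and 152.2 in c, d and e, within the 55.9 to 194.8 of the rest. Over the 7 libraries the normalized count of H2-Ab1 ran from 175.7 through a median of 395.2 to 562.4, that of Cd74 from 213.0 through 409.1 to 1074, and that of H2-Aa from 17.8 through 115.9 to 340.8. H2-DMa ran from 119.6 through 268.4 to 553.9, H2-Ob from 15.2 through 88.6 to 278.0, H2-Eb1 from 10.9 through 39.9 to 124.7, and H2-DMb1 from 34.6 through 124.9 to 167.1. Ciita had a median of 15.6 and H2-DMb2 a median of 0.

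MPP3 (myeloid-biased) and MPP4 (lymphoid-biased) multipotent progenitors were compared across both genotypes. Before the results, 2 of the 8 libraries stand apart: MPP3 b and MPP4 a held 24372 and 24431 genes at 5 or more, against at most 17598 in the others, and correlated with their table at a median r of 0.706 and 0.615. H2-Ab1 had 417.7, 338.6, 1023 and 863.4 in MPP3 and 471.0, 259.2, 999.8 and 843.1 in MPP4, Cd74 173.2, 321.8, 167.1 and 231.6 against 299.5, 272.1, 163.1 and 274.1, and H2-DMa 275.1, 371.7, 521.8 and 727.0 against 526.1, 489.0, 855.6 and 678.4. The cell types overlapped for all 9 members. Libraries of the same letter share an animal number. The CPM sum of H2-Aa, H2-Ab1, H2-Eb1 and Cd74 was 139.9 and 141.6 in MPP3 c and d and 142.7 and 144.1 in MPP4 c and d. In a and b it was 60.6 and 79.1 in MPP3 and 91.9 and 63.2 in MPP4. Cd74 alone did not follow this split. Daxx was 92.4 to 249.0 in the c and d libraries and 298.6 to 556.1 in a and b. Limma called 0 of 20137 genes (0%), 0 members had an unadjusted p under 0.05, and edgeR and DESeq2 called 0 members, with and without those 2 libraries. The 95% interval of the log2 difference, MPP3 against MPP4, was -0.92 to 1.06 for H2-Ab1 and -1.03 to 0.65 for Cd74. The fit behind these intervals did not pair libraries by animal. Cd79a was 0 to 14.3 in MPP3 and 0 to 4.6 in MPP4, Itgax 0.7 to 89.4 and 23.9 to 120.0, Csf1r 109.1 to 760.5 and 378.7 to 1189, C1qa 0 to 186.5 and 0 to 182.0, and Cd3e 0 to 25.9 and 0 to 32.9.

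The genes whose log2 values followed the mean of H2-Aa, H2-Ab1, H2-Eb1 and Cd74 most closely differed from table to table. They were Gfer (Pearson r = 0.904), Surf2, Msl2, Icosl and Orc2 in KLS cells at 3 w.p.i. (8 libraries), and Dpy19l4 (0.953), Daxx (0.943), Ms4a2, Afdn and Zfp951 in GMPs at 3 w.p.i. (8 libraries). At 24 w.p.i. (6 libraries) they were Jchain (0.995), Prdx2, Rhebl1, Hba-a2 and Tmem68 in KLS cells and Dbnl (0.982), Nhlrc3, Phldb2, Gm10373 and Hif3a in GMPs. In long-term stem cells (7 libraries) they were Actr1a (0.984), Pkig, Tm7sf3, Npepl1 and Lgr4, and in MPP cells (8 libraries) Igsf8 (0.955), Cdkn1a, Nrg4 and Kctd17. These are from the top 5 of 10739 to 13730 genes ranked over few libraries that share genotype and depth, and the values of r describe these libraries only.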

How the data were processed

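RNA-seq of 59 libraries from sorted cells was deposited as 10 gene tables. The authors trimmed reads with cutadapt 1.13, aligned them to mm10 (GENCODE M14) with STAR 2.5.3, and deposited a signal, read counts divided by DESeq2 1.16.1 size factors, separately for each table. The counter and its use of strand are not given in the sources used here. The labels name 1 library kit for all samples, whereas the study's methods give a second kit for steady-state cells. Whole reads were recovered from the deposited values (within 0.01 in 100% of values).

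Values were tested as log2(normalized count + 1) with limma 3.58.1 (trend, R 4.3.3), all libraries of a table in 1 fit, for genes with a mean of at least 10, and called at a Benjamini-Hochberg adjusted p under 0.05 over all genes. Fold changes on this scale understate changes of low genes, and folds in the text are ratios of mean normalized counts. Alternatives were edgeR 4.0.16 and DESeq2 1.42.0 on recovered reads, other scalings, pseudocounts and filters, fits of only the genotypes compared, replicate blocks and leaving out each library. Scripts were tested on simulated data. CPM and RPKM used recovered reads and GENCODE vM21 exon lengths, and promoters RefSeq GRCm38.p6.

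The members and lists were chosen with earlier results of these data known. Members were named throughout, defining markers (Cd79a, Itgax, Csf1r, C1qa, Cd3e) in each comparison, and other listed genes where called, up to 3 per list by size. Further genes were named where they bore on a list's sum or set libraries apart. A few genes that these rules would name are not reported here. Where the labels do not say that libraries came from separate animals, p-values measure only the spread between these libraries. MPP3 and MPP4 libraries shared animal numbers, which pair them (r of same-animal deviations -0.44, -0.04, 0.42 and 0.55). Not analysed here were 52 columns of repeat-element tables.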

Additional observations from a re-analysis of the deposited data

Results flagged for a closer look

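In 45 groups of 4 or more libraries, each gene's highest and lowest library was set against the rest (Dixon's test), where chance alone picks about 1 group in 20. Library a of the long-term stem cells stood apart for H2-Aa (340.8, next 152.5), Ciita (99.8, next 35.7) and H2-DMb2 (106.4, next 5.4). In MPP4 cells, library b was low for H2-Eb1 (45.04, the others 147.1 to 165.3), and library a, which stands apart over all genes, was high for H2-DMb2 (193.7, next 41.7).

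In the Pu.1 line, 3 genes moved in opposite directions without overlap in KLS cells and GMPs, with log2 differences of -0.85 and 0.42 for H2-Aa, -0.96 and 0.61 for H2-Eb1, and -0.29 and 0.11 for H2-DMb2. For H2-DMb2 in KLS cells the groups nearly touch, at 103.01 in the lower WT and 102.92 in the higher Pu.1-KO library, and in CPM the Pu.1-KO libraries (6.75 and 7.99) lie inside the WT pair (5.13 and 8.17). The difference between the cell types was not tested.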

How the results depend on the processing

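Of the counts of called members, 160 alternatives stayed within 1.5 times the count reported and 29 did not. Raising the filter to a mean of 50 gave 2 called members in untimed GMPs, 2 in KLS cells of the Pu.1 line and 1 in its GMPs. In untimed GMPs the called genes H2-Aa, H2-Ab1 and H2-Ob had a mean below 50 and were then not tested. DESeq2 called 4 in GMPs at 3 w.p.i. for Daxx-KO, 3 for DKO against WT and 1 in KLS cells at 24 w.p.i., and a fit of only WT and Daxx-KO called 1 in GMPs at 3 w.p.i. In KLS cells of the Pu.1 line TMM gave 2, edgeR 0 and a pseudocount of 5 0. Leaving out single libraries gave 2 to 6 in untimed GMPs, in KLS cells at 3 w.p.i. 0 to 3 for DKO against WT and 1 to 2 against Daxx-KO, in GMPs at 3 w.p.i. 0 to 1 for Daxx-KO and for DKO against WT, in the Pu.1 line 0 to 3 in KLS cells and 0 to 2 in GMPs, and 0 to 1 in either cell type at 24 w.p.i. Without the filter on low values, Ciita (adjusted p = 0.1021, limma) and H2-DMa (0.1116) were not called in untimed KLS cells. The causes of the other changes were not tested.

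The replicate numbers of untimed cells and of KLS cells at 3 w.p.i. are shared numbers only. With a replicate block 7 members were called in untimed KLS cells, 5 in untimed GMPs, 0 in KLS cells at 3 w.p.i. for Daxx-KO, 2 for DKO against WT and 2 against Daxx-KO, and 0 between MPP3 and MPP4 cells. Against WT the 2 were H2-Ob, lower, and Cd74, higher (adjusted p = 0.01077, limma), with H2-DMa at 0.08216. Deviations of same-numbered untimed GMP libraries had r = -0.11, and crossed numbers also gave 5.

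Single genes turned direction as follows, none of them called with all libraries. H2-Eb1 in KLS cells, DKO against Daxx-KO, was 0.25 with the replicate block. By edgeR and DESeq2, Ciita in KLS cells at 24 w.p.i. was 0.031 and 0.032, H2-DMb2 in GMPs at 24 w.p.i. 0.030 and 0.030, and Ciita in MPP cells -0.16 by both. Without both MPP libraries that stand apart, a setting added after seeing the data, H2-Aa was 0.042. The lowest and highest log2 differences on leaving out 1 library were these. Untimed GMPs, Daxx-KO against WT, H2-DMb2 -0.12 to 0.016. KLS cells at 3 w.p.i., Daxx-KO against WT, H2-Ab1 -0.12 to 0.62 and H2-DMb1 -0.082 to 0.41. KLS cells at 3 w.p.i., DKO against WT, H2-DMb2 -0.18 to 1.46 and H2-Eb1 -1.74 to 0.044. KLS cells at 3 w.p.i., DKO against Daxx-KO, Ciita -0.42 to 0.16, Cd74 -0.068 to 0.39, H2-Eb1 -1.04 to 0.74, H2-DMb2 -0.65 to 0.98 and H2-Aa -1.18 to 0.21. GMPs at 3 w.p.i., Daxx-KO against WT, H2-DMa -0.50 to 0.063 and H2-DMb1 -0.39 to 0.13. GMPs at 3 w.p.i., DKO against WT, H2-DMa -1.07 to 0.20 and H2-DMb1 -1.13 to 0.20. GMPs at 3 w.p.i., DKO against Daxx-KO, H2-DMb2 -0.40 to 0.23, H2-Eb1 -0.79 to 0.76, H2-Ab1 -0.073 to 0.41, H2-DMa -0.89 to 0.39, Cd74 -0.097 to 2.72, H2-Aa -3.49 to 0.062, H2-DMb1 -0.94 to 0.39 and Ciita -2.24 to 0.37. GMPs of the Pu.1 line, Pu.1-KO against WT, Cd74 -0.0100 to 0.70, H2-Ab1 -0.63 to 0.045, Ciita -1.07 to 0.58 and H2-Ob -0.42 to 0.16. KLS cells at 24 w.p.i., Daxx-deleted against WT, Ciita -0.19 to 0.22. GMPs at 24 w.p.i., Daxx-deleted against WT, H2-DMb2 -0.61 to 0.49, Ciita -1.49 to 0.24, H2-DMa -0.058 to 0.32 and H2-Ob -0.40 to 0.12. MPP3 against MPP4 cells, H2-Aa -0.67 to 0.17, H2-Eb1 -1.04 to 0.19, Ciita -1.01 to 1.67, H2-Ab1 -0.31 to 0.34 and H2-DMb1 -0.36 to 0.57.

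Groups of 2 to 4 libraries limit the precision, and genotypes of long-term stem cells, MPP cells and the 2 Daxx-deleted kinds at 24 w.p.i. were not compared, so those planned fits were not run.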
